A study of Drosophila melanogaster with 51 samples.

Results

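The Polycomb group genes were examined in the open chromatin of Kc167 cells. The 10 genes described here encode core subunits of complexes that hold developmental genes silent and, in pho, a protein that recruits them. They were taken by name, as Pc, ph-p, ph-d, Psc, Su(z)2, Sce, E(z), Su(z)12, esc and pho, and they are 10 of the 13968 protein-coding genes annotated on the chromosome arms. Accessibility was read out by ATAC-seq, a method that marks exposed DNA by where a transposase inserts. The series held 51 libraries in 25 groups, and the values below come from the 3 libraries of basal Kc167 cells, which carried no construct and received no copper. Kc167 is an established line of embryonic origin that resembles hemocytes, the blood cells of the fly. The other 48 libraries, from stable lines that express Hox proteins, the cofactor Homothorax or Glial cells missing, were not analysed here. The authors called open regions in each basal library and kept those found in most of them, so a single list of 16118 regions stands for the group. The list has positions and no height, so width, number and place are the measures it allows. The values therefore carry no error between replicates, and genes were compared without a test.

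Polycomb repressive complex 1 (PRC1) carries the chromodomain protein Polycomb (Pc), which reads trimethylated lysine 27 of histone H3, a Polyhomeotic protein from ph-p or ph-d, a RING-finger scaffold from Psc or Su(z)2, and the histone H2A ubiquitin ligase Sce. Polycomb repressive complex 2 (PRC2) writes that methyl mark through the methyltransferase E(z) together with Su(z)12 and Esc. Pleiohomeotic, from pho, is a DNA-binding protein that recruits these complexes to Polycomb response elements in the fly genome. In Drosophila the complexes are best known for keeping Hox genes silent outside their segments.

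All 10 genes had an open transcription start site (TSS), meaning that a region overlapped the 250 bp on either side of at least 1 annotated TSS. Over all protein-coding genes this share was 47.8%. Longer genes were open more often, with 68.9% of those above 6470.4 bp, and the members had a median length of 8360 bp. Genes with more TSSs were also open more often. All 5 members with 1 TSS were open, against 39.8% of such genes, as were all 4 members with 2 TSSs, against 64.2%, and ph-p with 3 TSSs, against 81.9% of genes with 3 or 4. At the level of single start sites, all 16 windows of the members overlapped a region, against 46.1% of all 19630, and 15 of the 16 start bases lay inside a region, against 38.4%. The exception was the third TSS of ph-p. An open TSS is a statement on chromatin and not on transcription, which was not measured here.

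From 2 kb upstream to the end of the gene, the members held 29 regions of 109 to 937 bp, with a median of 260 bp. Each member held at least 1, which follows from its open TSS and is no separate result. Of all genes 59.8% held a region in this span. Of the 29 regions 20 lay at a TSS of their own gene (69.0%, against 46.8% over all genes), and 27 lay within 2000 bp of one (93.1%, against 84.2%). The 2 others both belonged to Su(z)2. The shares over all genes are of 22749 pairs of a gene and a region, so a region held by several genes counts for each. The members carried 2 or more regions at their TSSs in 8 of 10 cases, against 21.2% of all genes and 44.3% of open genes.

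**Figure D1:**
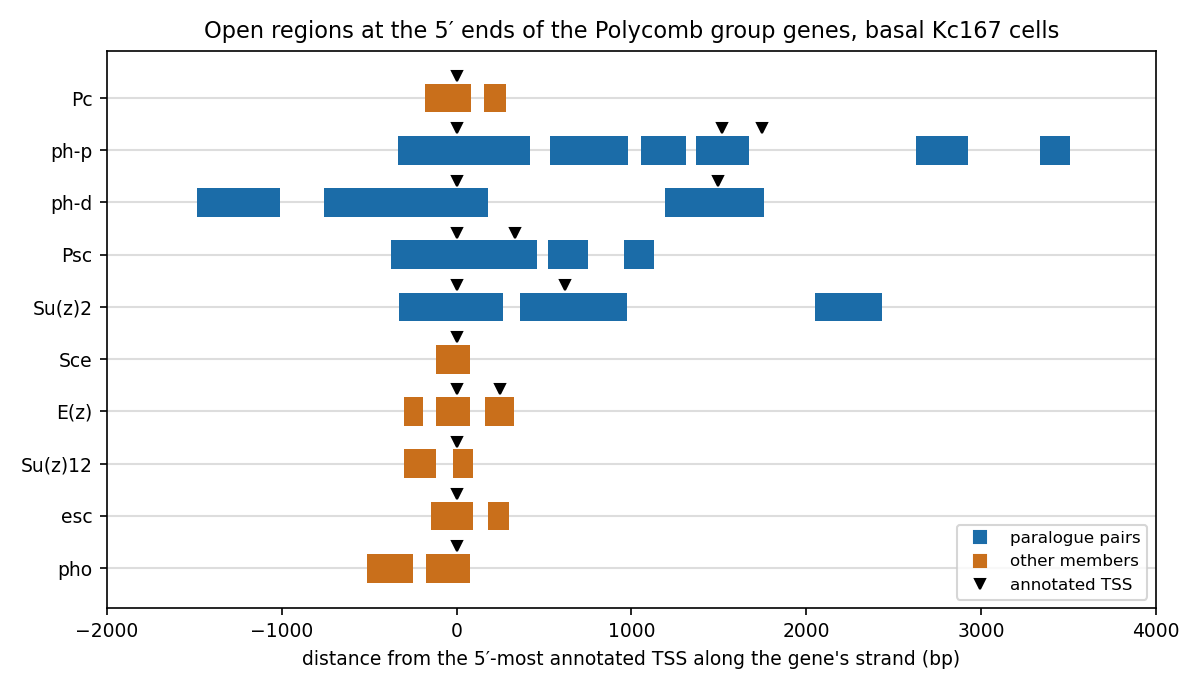
Open regions (bars) at the 5′ ends of the 10 Polycomb group genes in basal Kc167 cells, drawn by distance in bp from the 5′-most annotated TSS along each gene's strand, with annotated TSSs as triangles. The 4 genes of the paralogue pairs carry wide bars that reach up to 937 bp, while no bar of the other 6 genes is wider than 264 bp. The axis leaves out 2 regions of Su(z)2 near its 3′ end.

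The width of the widest region at a TSS set the paralogue pairs apart from the other members, a contrast in width seen in the values and not part of how the genes were chosen. The order was ph-d with 937 bp, Psc with 837 bp, ph-p with 757 bp and Su(z)2 with 617 bp, then Pc with 263 bp, pho with 253 bp, esc with 239 bp, E(z) with 196 bp, Sce with 195 bp and Su(z)12 with 186 bp. No member had a value between 263 and 617 bp. The 4 paralogues had a median of 797 bp and the other 6 a median of 217.5 bp, while over all 6670 open genes the median was 232 bp, with quartiles at 181 and 371 bp. Regions of at least 500 bp at a TSS occurred in 4 of 10 members, against 15.4% of open genes. Of the open genes 2.05% had a region as wide as that of ph-d, and 3.16%, 4.74% and 8.91% as wide as those of Psc, ph-p and Su(z)2. Gene length moves with width. Among genes longer than 6470.4 bp, the class that holds all 4 paralogues, the median was 356 bp. Pc and pho belong to the same class and lay below it, but their annotated lengths include transposons. In Pc a roo transposon makes up 9101 of the 11883 bp, and pho holds several transposons. The length of ph-p includes a transposon of 1446 bp. How much of the width goes with gene length or with the number of TSSs was not tested.

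**Figure D2:**
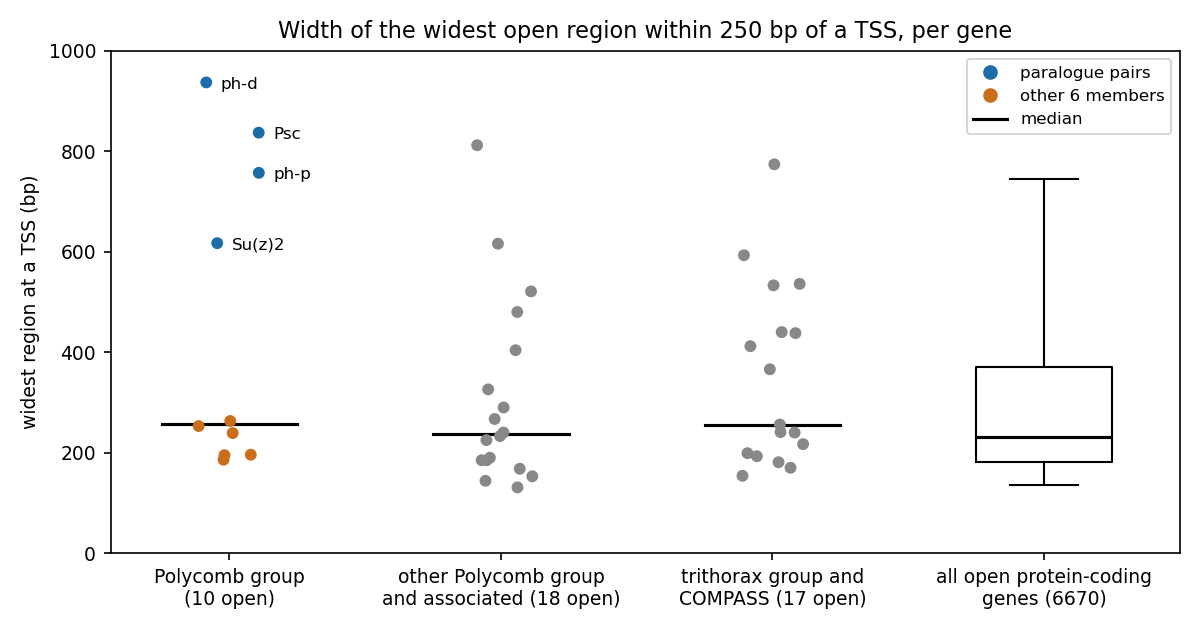
Width in bp of the widest region at a TSS for the Polycomb group genes, other Polycomb group and associated genes and trithorax group and COMPASS genes, with 1 point for each gene and a line at the median, and for all 6670 open protein-coding genes (box at the quartiles, whiskers at the 5th and 95th percentiles). The 4 paralogue genes lie between 617 and 937 bp and the other 6 members between 186 and 263 bp.

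The polyhomeotic genes ph-p and ph-d lie in tandem on the X chromosome, both on the minus strand, and encode PRC1 subunits with a SAM domain through which they polymerise. By the annotation ph-p (FBgn0004861) spans X:2126210-2138371 and ph-d (FBgn0004860) X:2115727-2123286 in Release 6 of the genome (dm6). Their proteins of 1589 and 1537 residues were identical at 89.3% of 1513 aligned positions. The similarity extends to a promoter, because a stretch of 529 aligned bases (90.7% identical) joins the second TSS of ph-p with the 5′-most TSS of ph-d. The 200 bases upstream of these start sites are shown to compare the copies, read 5′ to 3′ on the minus strand and ending at the base before the TSS. They come from X:2136856-2137055 for ph-p and X:2123287-2123486 for ph-d, and capitals mark GAGAG, the pentamer found in binding sites of GAGA factor.
ph-p: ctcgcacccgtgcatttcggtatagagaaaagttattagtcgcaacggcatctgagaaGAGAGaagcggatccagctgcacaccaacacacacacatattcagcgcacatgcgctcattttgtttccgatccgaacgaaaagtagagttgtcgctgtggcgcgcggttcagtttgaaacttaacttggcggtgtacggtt
ph-d: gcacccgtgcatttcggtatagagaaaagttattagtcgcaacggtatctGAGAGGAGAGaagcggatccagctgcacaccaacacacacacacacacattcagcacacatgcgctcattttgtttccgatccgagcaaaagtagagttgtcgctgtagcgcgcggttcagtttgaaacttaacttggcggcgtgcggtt
The sequences were identical at 188 of 196 aligned positions (95.9%), with 8 gap columns. The first has 1 GAGAG and the second 2 on this strand.

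Chromatin over these nearly identical bases was called differently in the copies. In ph-p 146 of the 200 bases lay inside a region, because a gap of 57 bp separated a region of 303 bp over the second TSS (X:2136699-2137001) from a region of 260 bp upstream of it (X:2137059-2137318). In ph-d all 200 bases lay inside the region of 937 bp (X:2123109-2124045), which ran from 759 bp upstream to 177 bp downstream of the TSS. The authors kept reads with a single alignment, and the copies share many short words. Of the 36-base words that start in this gap, 100% had a copy in ph-d at up to 2 mismatches, and of the 50-base words 86.0%. Over all bases in regions of ph-p the shares were 9.31% and 3.72%. Over the 200 bases, 72% of the 36-base words in ph-p and 70.5% of those in ph-d had such a copy, and in ph-d this stretch was called open throughout. The bases of ph-d that match the gap were not examined alone. Whether the gap follows from unplaced reads was not tested.

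Across the whole gene and 2 kb upstream, ph-p held 6 regions and ph-d 3. The first region of ph-p, with 757 bp (X:2137950-2138706), covered its 5′-most TSS from 335 bp upstream to 421 bp downstream, and the next 5 followed in 5′ UTR and intron sequence up to 3510 bp into the gene. Besides its TSS region, ph-d had a region of 475 bp from 1485 to 1011 bp upstream and a region of 566 bp over its second TSS, 1494 bp downstream of the first. The regions covered 2234 bp in ph-p and 1978 bp in ph-d, a difference of 256 bp, but ph-p is longer, and per kb the coverage was 158 bp in ph-p and 207 bp in ph-d. That order rests on the upstream sequence, because without it the coverage was 156 bp per kb in ph-p and 98.4 bp per kb in ph-d, a difference of 1155 bp in all. At their TSSs the regions summed to 1320 bp in ph-p and 1503 bp in ph-d. With 2 kb upstream, both genes exceeded the medians of their length class, which were 43.0 bp per kb over all genes and 66.2 bp per kb over open genes.

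**Figure D3:**
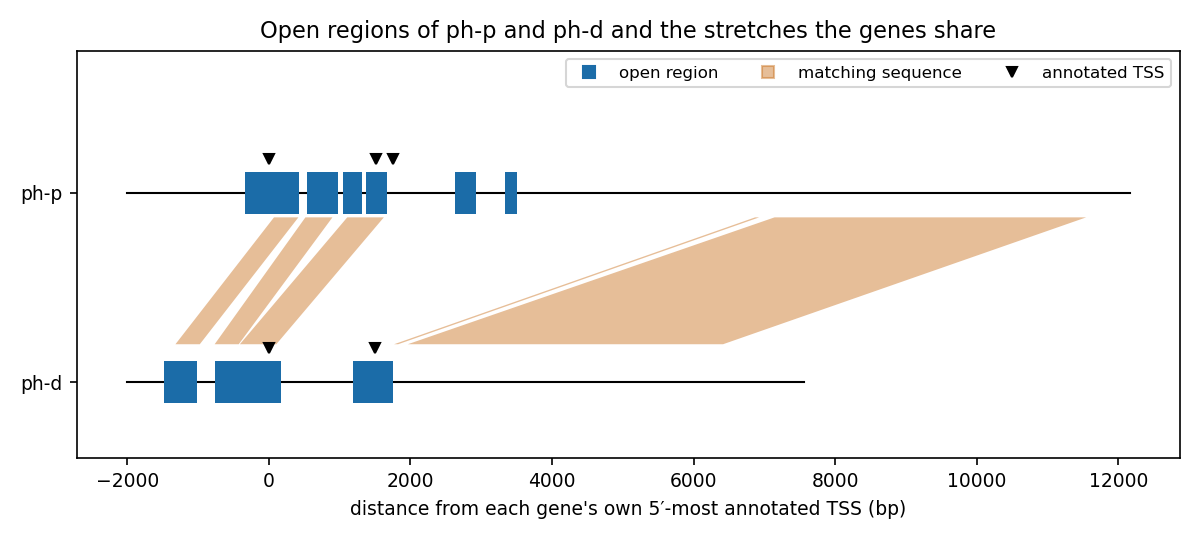
Open regions of ph-p (upper line) and ph-d (lower line), each drawn in bp from its own 5′-most annotated TSS with 2 kb upstream, and shaded bands that join the 5 stretches of matching sequence. The bands at the 5′ side join regions of ph-p within 1672 bp of its first TSS to the first 2 regions of ph-d, and the band of 4480 aligned bases lies outside regions in both.

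An alignment of the genes gave 5 matching stretches, which made up 40.3% of ph-p and 59.8% of ph-d with their upstream sequence. The 3 at the 5′ side touched regions in both genes. Bases 72 to 417 from the first TSS of ph-p, within its 757-bp region, matched positions -1320 to -976 from the first TSS of ph-d, where the 475-bp region lies, at 81.0% identity. Bases 516 to 898 of ph-p, at its 441-bp intron region, matched positions -766 to -426 of ph-d at 70.5%, where the 937-bp region lies. The open upstream sequence of ph-d therefore corresponds in position to transcribed sequence of ph-p that follows its first TSS. By contrast the longest stretch, 4480 aligned bases at 92.0% identity, held no region in either gene. Outside regions 67.5% of the 36-base words of ph-p and 67.7% of those of ph-d had no second exact copy in the genome. With up to 2 mismatches, 73.6% of these words of ph-p and 59.1% of those of ph-d had no copy in the other gene. These shares cover all sequence outside regions in each gene and 2 kb upstream. They were not computed for the longest stretch alone, where copied words can be more frequent. Whether its lack of regions follows from unplaced reads was not tested. Between the 5′ end of ph-d and the 3′ end of ph-p, 53.7% of 2923 bp was covered by 3 regions, and the third, of 337 bp and 2282 bp from the ph-d TSS, fell outside the 2 kb of either gene.

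Posterior sex combs (Psc) and Suppressor of zeste 2 (Su(z)2) encode alternative RING-finger subunits of PRC1 and lie head to head on chromosome 2R. Psc (FBgn0005624) is on the minus strand at 2R:12965997-12980994 and Su(z)2 (FBgn0265623) on the plus strand at 2R:12996501-13007911. Their proteins of 1601 and 1368 residues were identical at 27.1% of 1232 aligned positions, and no matching stretch of DNA was found between the genes. Every 36-base word of their TSS windows was unique. A region of 837 bp (2R:12980534-12981370) covered both TSSs of Psc, which are 336 bp apart, from 376 bp upstream to 460 bp downstream of the first, and a region of 233 bp followed after 60 bp. Su(z)2 instead had a region at each of its start sites, of 595 bp (2R:12996170-12996764) at the first and of 617 bp (2R:12996861-12997477) at the second, which lies 622 bp downstream. Psc had the wider single region, by 220 bp, but the regions at the TSSs summed to 1070 bp in Psc and 1212 bp in Su(z)2.

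With 2 kb upstream, Psc held 3 regions that covered 1245 bp, or 73.2 bp per kb, and Su(z)2 held 5 regions that covered 2010 bp, or 150 bp per kb. The third region of Psc, of 175 bp, lay in an intron 619 bp past its second TSS. Su(z)2 had an intron region of 382 bp and 2 regions in its 3′ UTR, of 293 and 123 bp, the closer of which begins 8938 bp from the nearest TSS. The difference of 765 bp in favour of Su(z)2 depended on where the upstream limit was set, since with 5 kb upstream Psc exceeded Su(z)2 by 73 bp.

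That change comes from the sequence between the genes. The 15506 bp between their 5′ ends were overlapped by 6 regions, all of at least 500 bp, which covered 23.5% of them. The outer 2 are the TSS regions of Psc and Su(z)2. The inner 4 belong to neither gene by the limit of 2 kb and had widths of 759, 787, 751 and 637 bp in order from Psc. Of these the second covered the TSS of the noncoding RNA gene lncRNA:CR44339 and the first lay 198 bp from it, while the other two were 2516 bp (751-bp region) and 1605 bp (637-bp region) from the nearest TSS, that of the protein-coding gene CG33798. Across the whole locus of 41915 bp, 12 regions covered 14.8%, against 18.6% for the 22645 bp of the ph-d and ph-p locus. Which gene, if any, the inner regions act on cannot be told from positions.

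**Figure D4:**
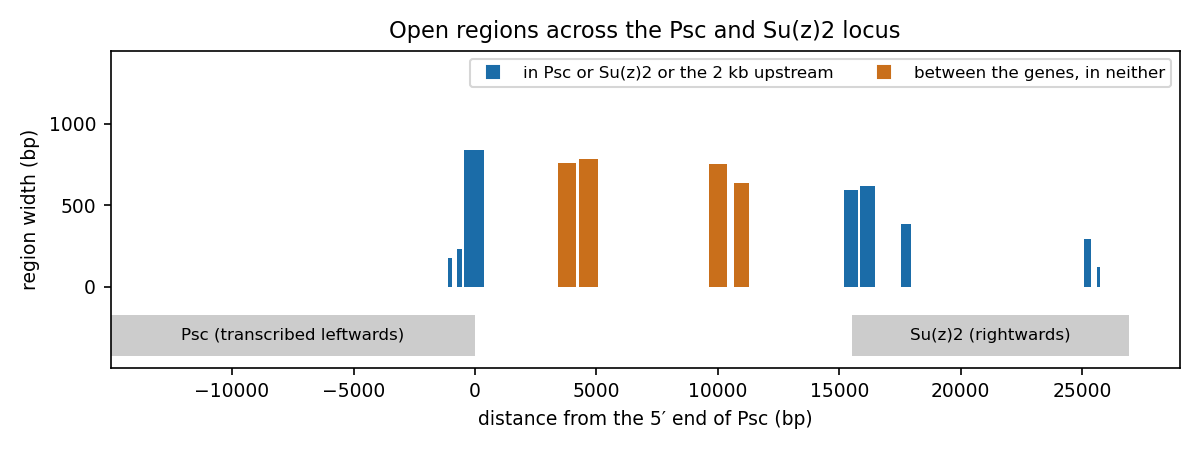
Open regions across the Psc and Su(z)2 locus, with distance in bp from the 5′ end of Psc on the horizontal axis, region width in bp as bar height and the genes as grey boxes. The 4 regions between the genes are 637 to 787 bp wide, as wide as the TSS regions of 595 to 837 bp at the ends of the interval.

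The remaining PRC1 members had narrow regions. Pc (FBgn0003042), at 3L:21306138-21318020, had a region of 263 bp over its TSS (3L:21317937-21318199), from 179 bp upstream to 83 bp downstream, and a region of 126 bp in coding sequence that started 70 bp further on. Together they covered 389 bp, or 28.0 bp per kb, the lowest density of the 10 genes. A roo transposon of 9101 bp is annotated within Pc in the reference genome (3L:21306203-21315303), and outside regions only 33.0% of the 36-base words of Pc were unique. Sce (FBgn0003330), at 3R:27680431-27682029 the shortest member with 1599 bp, had a single region of 195 bp (3R:27681953-27682147), from 118 bp upstream to 76 bp downstream of its TSS. Its coverage was 54.2 bp per kb, against medians of 32.5 bp per kb over all genes of its length class, closed ones included, and 102 bp per kb over the open genes of that class.

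In PRC2 every region was narrower than 240 bp, and all lay at a TSS. The catalytic subunit gene E(z) (FBgn0000629), at 3L:10634575-10638130, had 3 regions of 109, 196 and 162 bp in a row, the last pair over its TSSs 251 bp apart. All 3 also overlapped the TSS window of the neighbouring gene Cnep1r2, so they cannot be given to E(z) alone. Su(z)12 (FBgn0020887), at 3L:19918242-19923462, encodes the zinc-finger subunit and had a region of 116 bp over its TSS and a wider one of 186 bp that lay 301 to 116 bp upstream, both shared with the TSS window of Pfdn6. The gene esc (FBgn0000588), at 2L:11827204-11829405, encodes the WD40 subunit that binds the methyl mark and had a region of 239 bp over its TSS (2L:11829314-11829552) and one of 124 bp in the intron after it. Coverage was 84.1 bp per kb in E(z), 41.8 in Su(z)12 and 86.4 in esc, against medians over all genes of 60.7 for the length class of E(z) and Su(z)12 and 44.2 for that of esc. Over the open genes alone these medians were 89.0 and 93.5, above all 3 members. The gaps between neighbouring regions at a TSS measured 57 bp in ph-p and 60 bp in Psc, against 70 to 93 bp for the 5 gaps in Pc, E(z), Su(z)12 and esc. The 7 gaps together had a range of 57 to 93 bp with a median of 73 bp, while the 2483 gaps of all genes had a median of 78 bp, with quartiles at 55 and 100 bp. The TSS regions of Su(z)2 were 96 bp apart, but they lie at different start sites and are not among the 7 gaps.

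Among the members with narrow regions, 3 shared a promoter motif at a similar place. GGTCACAC, the core of promoter motif 1, which the zinc-finger protein M1BP binds, occurred once in the promoters of Sce, E(z) and esc, and promoters here are the 250 bp before to the 50 bp from each TSS. Each match began 13 to 28 bp downstream of a TSS, in the 5′ UTR and inside a region. The 30 bases around each match are shown to compare the flanks, read 5′ to 3′ on the minus strand with the motif in capitals, from 3R:27681988-27682017 for Sce, 3L:10637848-10637877 for the second TSS of E(z) and 2L:11829359-11829388 for esc.
Sce: aaccaaagtgcGGTCACACttcaagctaat
E(z): tgcagtacaacGGTCACACtgcggcagctg
esc: tccgtgactggGGTCACACcattgccgcca
In all, 3 of the 16 member promoters held the motif, and none of the 4 paralogues did. Over the 19276 distinct promoters of protein-coding genes, closed genes included, the share was 6.71%. Among regions at TSSs the motif lay in 3 of 20 in the members, against 10.2% of all. Per kb it had 0.309 matches in all member regions, against 0.374 in all TSS regions.

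The gene pho (FBgn0002521) lies on chromosome 4 at 4:1172469-1181628 and encodes the DNA-binding member. A region of 253 bp (4:1181551-1181803) covered its TSS from 175 bp upstream to 77 bp downstream, and a second, of 264 bp (4:1181880-1182143), lay 76 bp further upstream. The near edge of this second region was 252 bp from the TSS, just outside the window of 250 bp, so pho counts as having 1 region at its TSS and would have 2 with a window of 500 bp. Together they covered 517 bp, or 46.3 bp per kb. Several transposons are annotated in and around pho, and outside regions 92.6% of its 36-base words were unique. The core of the Pho binding site, GCCAT, did not occur in the promoter or regions of pho. It was found in 6 of 16 member promoters, against 41.0% of all promoters.

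A motif that was denser in the wide than in the narrow members was GAGAG, counted on both strands with overlaps. All 9 promoters of the paralogue genes held it, and 1 of the 7 promoters of the other members did, the first of E(z), against 33.1% of all promoters. In the regions at TSSs, the 4 paralogues had 49 matches in 5105 bp, or 9.60 per kb, with a match in 8 of 9 regions. The other 6 genes had 2 matches in 1969 bp, or 1.02 per kb, with a match in 2 of 11 regions, and all TSS regions had 4.17 per kb. Wide regions hold more GAGAG in the genome at large. The density was 5.92 per kb in TSS regions of at least 500 bp, 5.55 in those of 300 to under 500 bp and 2.47 in those under 300 bp. The pooled density of the paralogues was above that of wide regions, and that of the other 6 below that of narrow ones, on few regions and with no test. Single genes departed from this. The TSS regions of ph-d held 8 matches, or 5.32 per kb, against 5.92 in regions of at least 500 bp, and those of E(z) held 2, or 4.28 per kb, against 2.47 in regions under 300 bp. Over all regions of each gene and its 2 kb upstream, Psc had the highest density, 11.2 per kb, followed by Su(z)2 with 9.95, ph-p with 8.50 and ph-d with 7.58. The order differed in the TSS regions alone, with 13.2 per kb in Su(z)2, 10.6 in ph-p, 10.3 in Psc and 5.32 in ph-d.

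**Figure D5:**
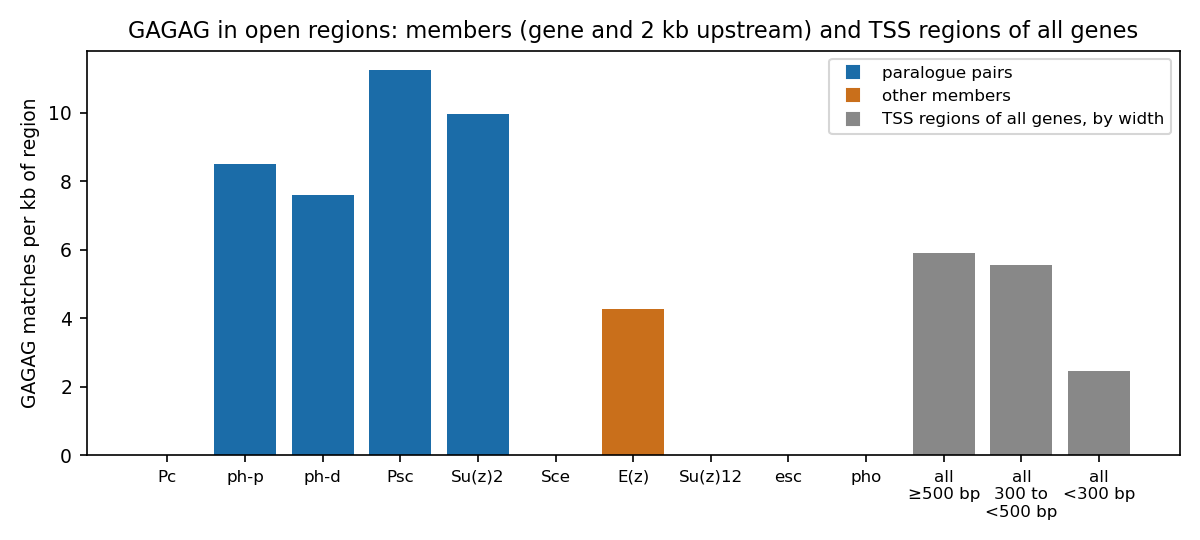
GAGAG matches per kb of open region, on both strands, for the regions of each Polycomb group gene (gene and 2 kb upstream) and for TSS regions of all genes in 3 width classes. The 4 paralogue genes lie between 7.58 and 11.2 per kb, E(z) has 2 matches in 467 bp, and the other 5 genes have none.

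GTGTGT was also denser in the regions of the paralogues, with 7.23 matches per kb against 0.896 in those of the other 6. The 617-bp region of Su(z)2 alone held 15 of the 54 paralogue matches. The TSS regions of all genes held 3.0 per kb, and they were not split by width for this motif. In promoters GTGTGT occurred in 6 of 16, those of Pc and esc among them, against 18.2% of all promoters. The DNA replication-related element TATCGATA was found in none of the 16 promoters, against 7.98% of all promoters, and TATAAA in 5 of 16, against 42.2%. Shares over all promoters include those of closed genes, whereas every member was open. Among all TSS regions, 9.78% held TATCGATA and 21.8% held TATAAA. No member region held TATCGATA. For TATAAA the order in regions was the reverse of that in promoters. It had 1.24 matches per kb in the member regions, those away from a TSS included, against 1.03 in all TSS regions. These 6 motifs were the only ones searched, and a match is a string of letters and not a bound site. The regions at member TSSs had a median GC content of 46.8%, against 43.8% for all TSS regions.

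Genes that work with or against these complexes were largely open too, beside 47.8% of all protein-coding genes. Both lists hold long genes, with a median length of 5616 bp in the other Polycomb group list and 8157 bp in the trithorax list. In the length classes of these medians, 63.0% and 68.9% of all genes were open. Of 18 other Polycomb group and associated genes, such as accessory subunits of PRC2 and members of the PR-DUB and PhoRC complexes, all 18 had an open TSS, with a median widest region of 236.5 bp. The widest were those of jing with 812 bp and Jarid2 with 616 bp, both PRC2-associated zinc-finger or Jumonji-family proteins, and of the DNA-binding protein gene cg with 521 bp. In the trithorax group, which keeps genes active against Polycomb, and the COMPASS methyltransferases, 17 of 18 genes were open, with a median of 256 bp and the widest regions in the chromodomain helicase gene kis with 774 bp, the BET bromodomain gene fs(1)h with 593 bp and the Brahma complex gene osa with 536 bp. The exception was kto, a subunit of the Mediator kinase module, which held no region although every 36-base word in its TSS windows was unique. Of 12 hemocyte genes used to check the label of the cells, 9 had an open TSS (75%). These 12 genes had a median length of 10809.5 bp, and 68.9% of all genes longer than 6470.4 bp were open. The count alone therefore does not settle the label. The widest regions were at the GATA factor gene srp with 844 bp, its cofactor gene ush with 773 bp and the collagen gene Col4a1 with 712 bp. The hemocyte receptor genes NimC1 and Sr-CI and the hemocyte gene He had none.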

How the data were processed

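ATAC-seq was analysed for basal Kc167 cells, whose 3 replicates are biological. The deposited values are start and end positions of open regions, without counts or signal. Per the study's methods and the submitters' notes, reads were mapped by the authors to dm6 without scaffolds using Bowtie 1.2.2, those with a single alignment were kept and shifted to the centre of transposase contact, regions were called per replicate with MACS2 2.1.1.20160309, and regions open in most replicates were retained. The shift suits ATAC-seq. Reads that match several places equally well were left out, which can lower what is called in copied sequence. The list itself holds no depth, read totals given by the study were not used here, and no source used here gives the length of the reads.

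Regions were compared with Ensembl release 115 genes (BDGP6 version 54) on 7 arms, in positions counted from 1. Regions that shared at least 1 bp with the window of 250 bp to each side of a TSS counted as at that TSS. Python 3.11.15, numpy 2.4.6, Biopython 1.88 (protein alignment) and BLAST+ 2.17.0 (E value up to 1e-10) were used, and overlap counting was tested on simulated data. The word uniqueness used 36 and 50 bases. Named genes were all members, closed genes and the 3 widest of each other list, and genes sharing a member's TSS region. Members and lists were chosen with earlier results of these data known. The 500-bp limit, the width classes and the contrast of paralogues with other members were chosen after values were seen.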

Additional observations from a re-analysis of the deposited data

How the results depend on the processing

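No paired analysis was possible because the list pools the replicates, and for the same reason no replicate could be left out. The 10 members kept an open TSS with windows of 100 or 500 bp, an overlap of at least 50 bp and the outermost TSS only. With regions of at least 200 bp only, 7 of the 10 did, beside 30.9% of all genes, and 11 of the 18 other Polycomb group genes did. Of 30 widths recomputed for the members 27 were unchanged, and the others were those of Su(z)12 with 116 bp (window of 100 bp), pho with 264 bp (window of 500 bp) and Su(z)2 with 595 bp (outermost TSS). For ph-p minus ph-d the difference in regions was 4 with 0 kb upstream and 2 with regions of at least 200 bp, and that in covered length was 1155 bp with 0 kb upstream, 130 bp with 5 kb upstream and 82 bp with regions of at least 200 bp. For Psc minus Su(z)2 the difference in regions was -1 with 5 kb upstream, and that in covered length was -810 bp with 0 kb upstream, -817 bp with regions of at least 200 bp and 73 bp with 5 kb upstream, where 2 of the regions between the genes enter Psc and 1 enters Su(z)2. Judging regions by their midpoint changed neither pair. In an alternative added after the data were seen, coverage per kb for ph-p minus ph-d was 57.7 bp with 0 kb and -41.8 bp with 5 kb upstream, against -49.2 bp with 2 kb, and for Psc minus Su(z)2 it was -89.2 bp with 0 kb and -25.3 bp with 5 kb upstream.

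The list holds no signal at or outside the regions, so it cannot be told whether neighbouring regions would join, or a closed TSS be called, at another threshold or depth.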
